A study of Mus musculus with 141 samples.

Results

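*Gpnmb*, *Glo1*, *Hc*, *Dysf*, *Alad* and *Klrd1* are 6 mouse genes for which inbred strains are known to carry natural loss, duplication or insertion alleles. They were taken by symbol from a listing of 36558 genes, and each symbol matched 1 row. All 6 were among the 16765 genes that passed the filter on low counts. RNA-seq of inguinal subcutaneous fat (iWAT) was measured across the HMDP, the Hybrid Mouse Diversity Panel of inbred and recombinant inbred strains. There were 67 female and 74 male libraries from 82 strains. In 59 strains both sexes were present with 1 library each. A further 8 strains had a female library only and 15 a male library only. All mice, the parental strains included, were switched from chow at 8 weeks of age to a diet rich in fat and sucrose (HF/HS) for 8 weeks and were fasted for 4 h before collection.

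The parental strains were C57BL/6J, DBA/2J, A/J, C3H/HeJ and BALB/cJ, each with 1 female and 1 male library. The recombinant inbred families descend from crosses of C57BL/6J with one of the others. A line therefore generally carries, at each locus, the allele that 1 of its parents had when the cross was made. The label BXD24/TyJ-Cep290<rd16>/J also names an allele of *Cep290*. The BXD family (C57BL/6J and DBA/2J) had 66 libraries of 40 strains. The AXB/BXA family (C57BL/6J and A/J) had 20 libraries of 11 strains. The BXH family (C57BL/6J and C3H/HeJ) had 5 libraries of 4 strains, and the CXB family (C57BL/6J and BALB/cJ) had 6 libraries of 3 strains. The remaining 34 libraries came from 19 other inbred strains. By their names, AXB19/PgnJ, AXB19a/PgnJ and AXB19b/PgnJ are related lines and not independent crosses.

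The genes act in different processes. *Glo1* encodes glyoxalase 1, which detoxifies methylglyoxal, a reactive by-product of glycolysis, and lies in a segment that is duplicated in several inbred strains. *Alad* encodes delta-aminolevulinate dehydratase, an early enzyme of heme synthesis, and its copy number also differs between strains. *Dysf* encodes dysferlin, a ferlin needed for the resealing of muscle membranes, and A/J carries a retrotransposon insertion in it. *Gpnmb* encodes a glycoprotein of melanosomes and lysosomes that is strongly expressed by lipid-laden macrophages, and DBA/2J carries a premature stop codon in it. *Klrd1* encodes CD94, which pairs with NKG2 lectins on natural killer (NK) cells, and DBA/2J lacks the protein. *Hc* encodes complement component C5, the start of the membrane attack complex, and a short deletion shared by DBA/2J, A/J and other strains prevents its secretion. None of these alleles was read here. The data give RNA levels only.

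Library depth lay between 6269154 and 78562648 estimated counts (median 30233245). On the TMM scale of all levels below, a floor of 3 counts is 0.0964 CPM (counts scaled to library size) in the median library and 0.843 CPM in the least deep library. These floors cover counting error only. The sum of 4 Y-linked genes was between 5.49 and 33.9 CPM in 65 female libraries and between 182 and 537 CPM in 73 male libraries. The remaining 3 libraries went against their labels. They were the libraries labelled BXD34/TyJ female at 1398 CPM, BXD69/RwwJ female at 373 CPM and NZW/LacJ male at 8.05 CPM. The BXD34/TyJ female library was also the least deep. The library labelled PL/J male stood apart in another way. The 5 mammary epithelium markers (*Epcam*, *Krt8*, *Krt18*, *Krt14* and *Krt5*) of that library summed to 265 CPM and those of the library labelled NZW/LacJ male to 396 CPM, whereas 72 other male libraries lay between 0.130 and 34.5 CPM. Both were also more like the female of another strain than their own female. This was over the 200 genes that differed most between strains, members left out. The PL/J male had r = 0.645 with the PL/J female and 0.865 with the A/J female. The NZW/LacJ male had r = 0.577 with the NZW/LacJ female and 0.829 with the 129X1/SvJ female. In 55 of 59 strains the male was most like its own female. Labels were kept. Adipocyte markers were present in every library, with a summed level between 3340 and 43943 CPM. Markers of B cells and lymph node spanned 1.84 to 1106 CPM over libraries, so that libraries differed in how much lymphoid RNA they held.

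The promoters of *Glo1*, *Alad* and *Gpnmb* are shown because their strain terms ranked first among the members (262, 397 and 644 of 16765). They are the C57BL/6J reference (RefSeq, GRCm38.p6), from 250 bases before to 50 bases after the start, written 5′ to 3′, and hold no allele of another strain. Of the 6 members, 5 had an entry, *Klrd1* had none, and RefSeq lists a further *Alad* start that is not shown. Capitals mark matches on either strand to any of 4 motifs, and matches can overlap. The GC box, GGGCGG, is found in 35.7% of all 32851 promoters of that length. The TATA box, with the letters TATAAA, is found in 13.6% of them. The motif CATGTG, an E-box that factors of the MITF family bind, is found in 14.2%. The palindromic E-box, which reads CACGTG, is found in 7.15%.
Glo1, chr17:30612610-30612909, minus strand: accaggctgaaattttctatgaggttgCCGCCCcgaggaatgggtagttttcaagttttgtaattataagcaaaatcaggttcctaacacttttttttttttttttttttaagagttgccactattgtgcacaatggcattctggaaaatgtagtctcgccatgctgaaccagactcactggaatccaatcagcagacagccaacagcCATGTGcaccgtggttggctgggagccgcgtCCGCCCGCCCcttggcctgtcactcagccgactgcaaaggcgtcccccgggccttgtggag
Alad, chr4:62519860-62520159, minus strand: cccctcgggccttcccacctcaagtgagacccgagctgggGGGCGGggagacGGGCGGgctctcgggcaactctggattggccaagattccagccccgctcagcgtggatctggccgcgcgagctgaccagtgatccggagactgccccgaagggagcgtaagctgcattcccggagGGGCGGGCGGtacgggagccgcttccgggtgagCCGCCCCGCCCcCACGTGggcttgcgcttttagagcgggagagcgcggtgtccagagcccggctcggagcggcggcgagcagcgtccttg
Gpnmb, chr6:49036268-49036567, plus strand: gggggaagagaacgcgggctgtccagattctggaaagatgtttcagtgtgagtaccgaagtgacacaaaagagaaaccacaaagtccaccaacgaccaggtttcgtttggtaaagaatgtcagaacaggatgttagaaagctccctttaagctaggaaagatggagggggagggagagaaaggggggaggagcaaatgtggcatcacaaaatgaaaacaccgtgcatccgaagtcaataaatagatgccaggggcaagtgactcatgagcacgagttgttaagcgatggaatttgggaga
The *Glo1* promoter held 3 matches to the GC box and 1 to CATGTG, with 11 CG dinucleotides. The *Alad* promoter held 6 matches to the GC box and 1 to CACGTG, with 33 CG dinucleotides against a median of 7 over all promoters. It was 71.3% G and C against a median of 52.7%. The window of the further *Alad* start, not shown, held 2 matches to the GC box, 1 to CACGTG and 19 CG dinucleotides. That window was 60% G and C. The *Gpnmb* window held 0 of the 4 motifs and 9 CG dinucleotides, so these letters are not in this window.

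Compared per transcript length, *Glo1* and *Alad* were the most abundant members. Their median levels over all libraries were 69.996 and 62.5 TPM (transcript abundance scaled for length). *Dysf* followed at 16.2 TPM, *Gpnmb* at 10.6 TPM, *Klrd1* at 7.34 TPM and *Hc* at 1.87 TPM. The ranges were wide for some members and narrow for others. *Glo1* differed 4.86-fold between the lowest and the highest library, *Alad* 12.9-fold and *Dysf* 13.6-fold. *Gpnmb* spanned 0.673 to 1255 CPM, a 1864-fold range, and *Klrd1* and *Hc* reached 33.01 and 46.8 CPM from levels at or under 3 counts in 4 libraries each. All levels below are CPM scaled by TMM, and differences are log2FC from edgeR's quasi-likelihood test of the model ~ Strain + Sex over the matched strains, with Benjamini-Hochberg adjustment over 16765 genes.

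**Figure D1:**
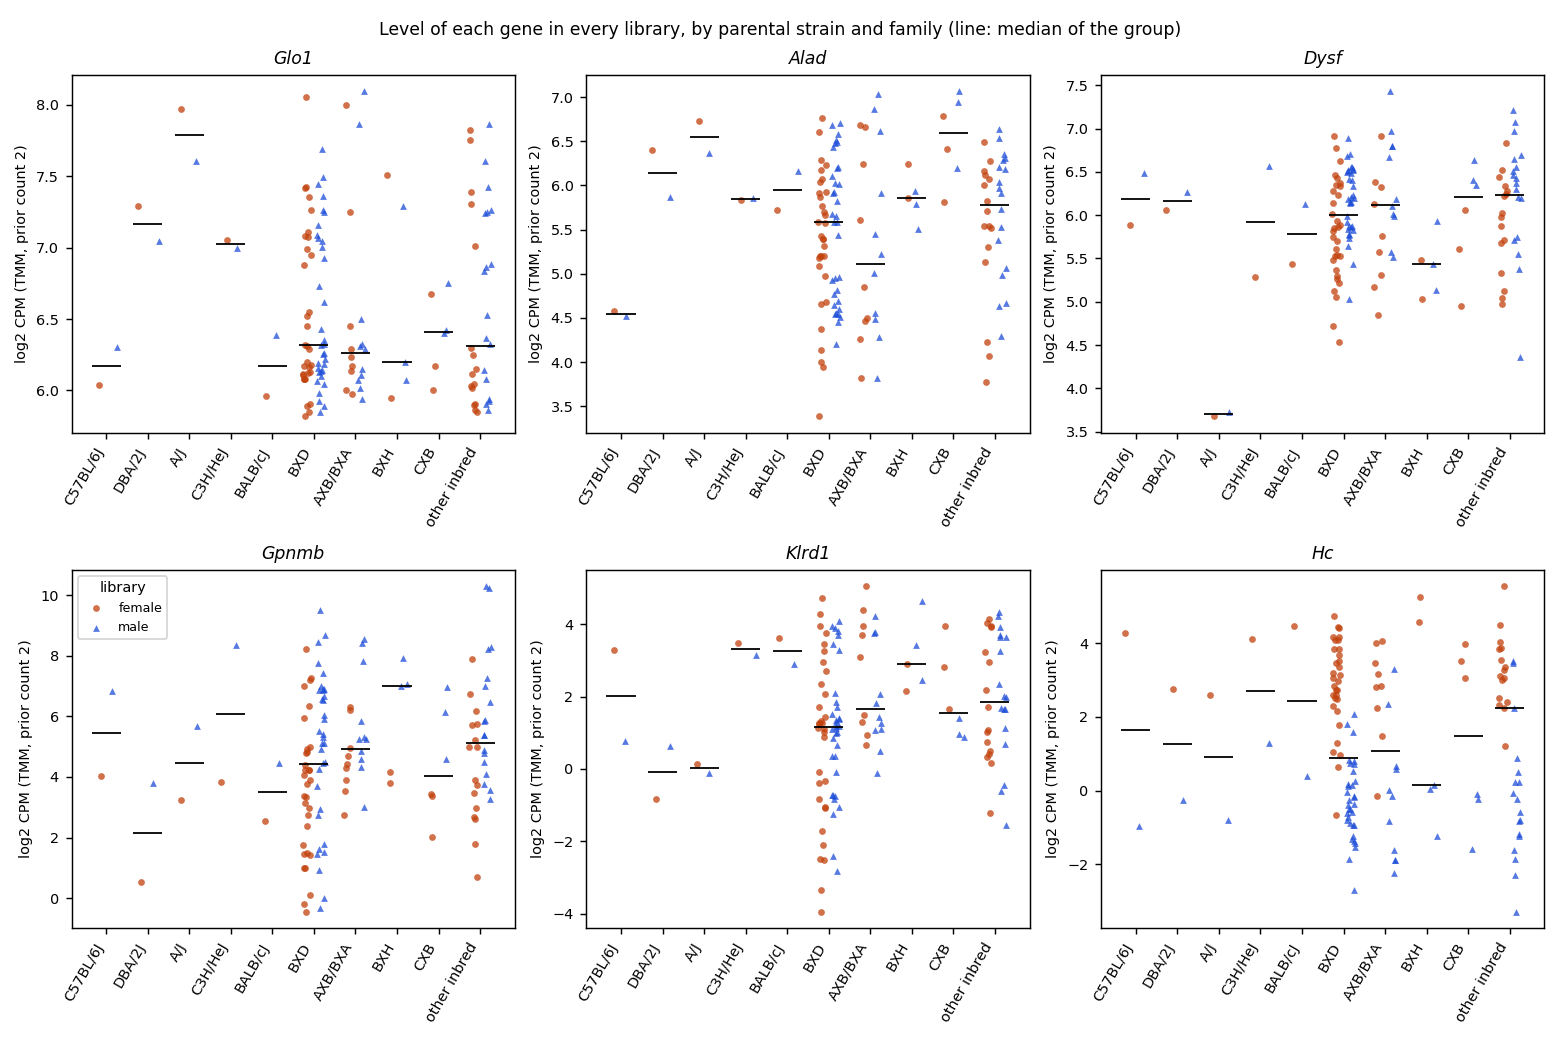
Level of each of the 6 genes in every library as log2 CPM, grouped by parental strain, recombinant inbred family and other inbred strains, with females as circles, males as triangles and the group median as a line. *Glo1* and *Alad* are low in both C57BL/6J libraries, *Dysf* is lowest in both A/J libraries, and *Hc* is higher in females than in males in 57 of 59 matched strains.

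The parental contrasts ask which members differ between C57BL/6J and each of the other parents. All 4 contrasts share the same 2 C57BL/6J libraries. In DBA/2J vs. C57BL/6J, 2 of 6 members passed an adjusted p of 0.05, both higher in DBA/2J. Of all genes, 2.3% passed, 1.05% lower and 1.25% higher. In A/J vs. C57BL/6J, 3 of 6 passed, with *Glo1* and *Alad* higher and *Dysf* lower in A/J, against 2.76% of all genes (1.29% lower and 1.47% higher). In C3H/HeJ vs. C57BL/6J, 0 of 6 passed with edgeR against 2.49% of all genes (1.26% lower and 1.23% higher). Before adjustment, with p under 0.05, 2 members (*Glo1* and *Alad*) passed in C3H/HeJ, and DESeq2 called the same 2. In BALB/cJ vs. C57BL/6J, 1 of 6 passed (*Alad*, higher) against 2.59% of all genes (1.29% lower and 1.31% higher). With 2 libraries per parent, the p-values measure the spread between single libraries of each sex.

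**Figure D2:**
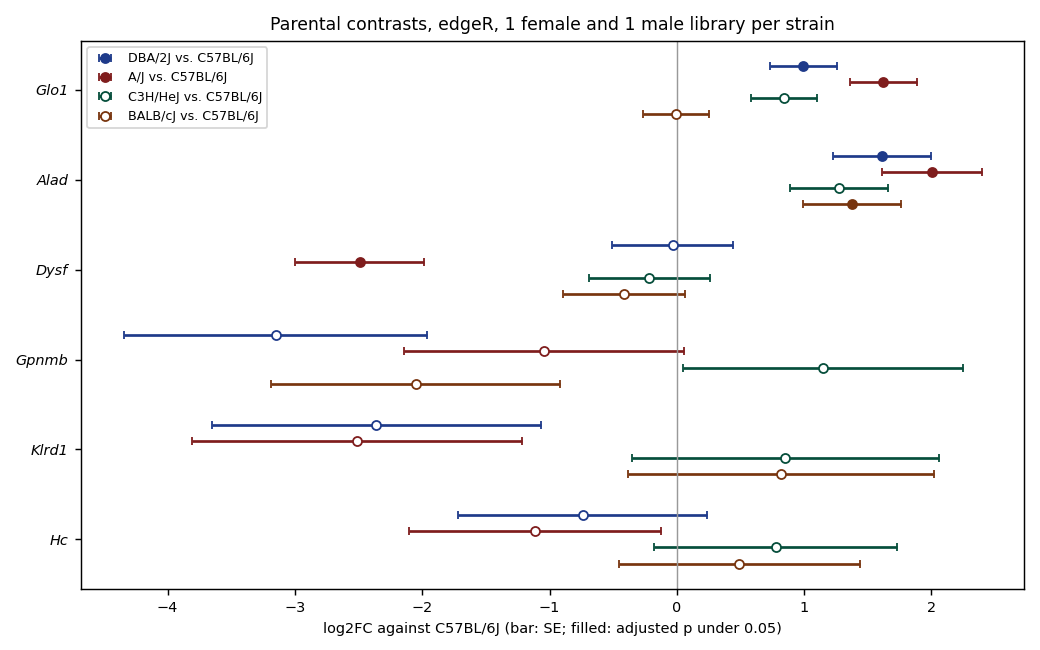
log2FC against C57BL/6J for each gene and parental strain, with the SE as a bar and filled points for an adjusted p under 0.05. *Glo1* in DBA/2J and A/J, *Alad* in DBA/2J, A/J and BALB/cJ, and *Dysf* in A/J are filled.

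*Glo1* (chr17:30584936-30626871, minus strand, GRCm38) was low in C57BL/6J and BALB/cJ and high in the other parents. The C57BL/6J libraries had 65.6 CPM (female) and 78.9 CPM (male), and BALB/cJ had 62.1 and 83.8 CPM. DBA/2J had 157 and 131.9 CPM, C3H/HeJ had 132.97 and 127.7 CPM, and A/J had 250.3 and 195 CPM. The high parents did not overlap with the low parents. *Glo1* was higher in DBA/2J by a log2FC of 0.99 (SE 0.26, adjusted p = 0.0184) and in A/J by 1.62 (SE 0.27, adjusted p = 1.71e-05). In C3H/HeJ the log2FC was 0.84 (SE 0.26, adjusted p = 0.0760), and in BALB/cJ it was -0.0063 (SE 0.26, adjusted p = 0.993). The DBA/2J call was lost without 1 library, with adjusted p = 0.247 without the C57BL/6J female, 0.134 without the C57BL/6J male and 0.356 without the DBA/2J female. On the log2(TPM + 1) and log2(TPM + 0.1) scales it was 0.106 and 0.108. In C3H/HeJ *Glo1* passed without NZW/LacJ (adjusted p = 0.0114), with library totals (0.00476) and with DESeq2 (0.0384).

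In the recombinant inbred lines both libraries of a line went together. BXD libraries ranged from 56.4 to 266 CPM with a median of 79.6 CPM. In 25 of 26 matched BXD strains both libraries were nearer the same parent on the log2 scale, and BXD12/TyJ, at 93.8 and 105.97 CPM, was the exception. Over all BXD strains, 15 were nearer DBA/2J and 24 nearer C57BL/6J. The values ran on without a wide gap, apart from the highest library, BXD34/TyJ labelled female, at 266 CPM above the next at 207 CPM. Without the libraries labelled BXD34/TyJ female and BXD69/RwwJ female, which go against their sex labels, 13 strains were nearer DBA/2J and 24 nearer C57BL/6J. In AXB/BXA, AXB5/PgnJ (255 and 274 CPM) and AXB12/PgnJ (152 and 234 CPM) were nearer A/J, and the other 9 strains were nearer C57BL/6J with a highest value of 90.5 CPM. No AXB/BXA library lay between 90.5 and 152 CPM, and no strain had libraries on both sides of that gap. In BXH, BXH22/KccJ (182 CPM) and BXH6/TyJ (157 CPM) were nearer C3H/HeJ, and BXH8/TyJ and BXH9/TyJ lay between 61.5 and 73.5 CPM. In CXB, whose parents overlapped, the 6 libraries lay between 63.994 and 107.99 CPM.

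Among the other inbred strains, *Glo1* was high in both libraries of CE/J (216 and 195 CPM), CBA/J (168 and 152 CPM), C57BLKS/J (158 and 114.4 CPM) and I/LnJ (129 and 116.5 CPM). It was also high in the single libraries of LP/J (227 CPM), SEA/GnJ (154 CPM) and AKR/J (152 CPM). It was low in both libraries of 129X1/SvJ, BTBR T<+> tf/J, FVB/NJ, KK/HlJ, NZB/BlNJ, SJL/J and SWR/J, with values from 57.4 to 82.6 CPM, and SM/J had 70.8 and 92.1 CPM. NZW/LacJ (234 CPM in the library labelled male, 1.82 above the female on the log2 scale) and PL/J (75.8 and 172 CPM) had 1 library on each side of the widest gap, which ran from 92.1 to 114.4 CPM. These are the strains with the library against its sex label and with the high mammary markers in a male library. In both, the library labelled male was more like the female of another strain, as given above. MA/MyJ, at 69.4 and 117.9 CPM, also had 1 library on each side. The median absolute difference between the sexes was 0.14 on the log2 scale over 59 strains, and 57 strains differed by less than 1.

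The joint test of all strain coefficients asks whether strains differ by more than the 2 libraries of 1 strain. For *Glo1* its F statistic was 10.3 (adjusted p = 7.2e-15), rank 262 of 16765 genes. All 6 members passed this test, as did 71.2% of all genes. Within families, *Glo1* had F = 20.002 in BXD (adjusted p = 9.36e-10), F = 30.8 in AXB/BXA (adjusted p = 0.00151) and F = 4.598 in the other inbred strains (adjusted p = 0.0422). Within BXD 6 of 6 members passed against 51.2% of all genes. Within AXB/BXA 2 of 6 passed (*Glo1* and *Alad*) against 1.14%, and within the other inbred strains the same 2 passed against 6.05%. *Glo1* did not pass the test of sex (log2FC female vs. male -0.10, SE 0.05, adjusted p = 0.0728). With all libraries in the same model the adjusted p was 0.0430, and scaled by library totals the log2FC was 0.012.

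**Figure D3:**
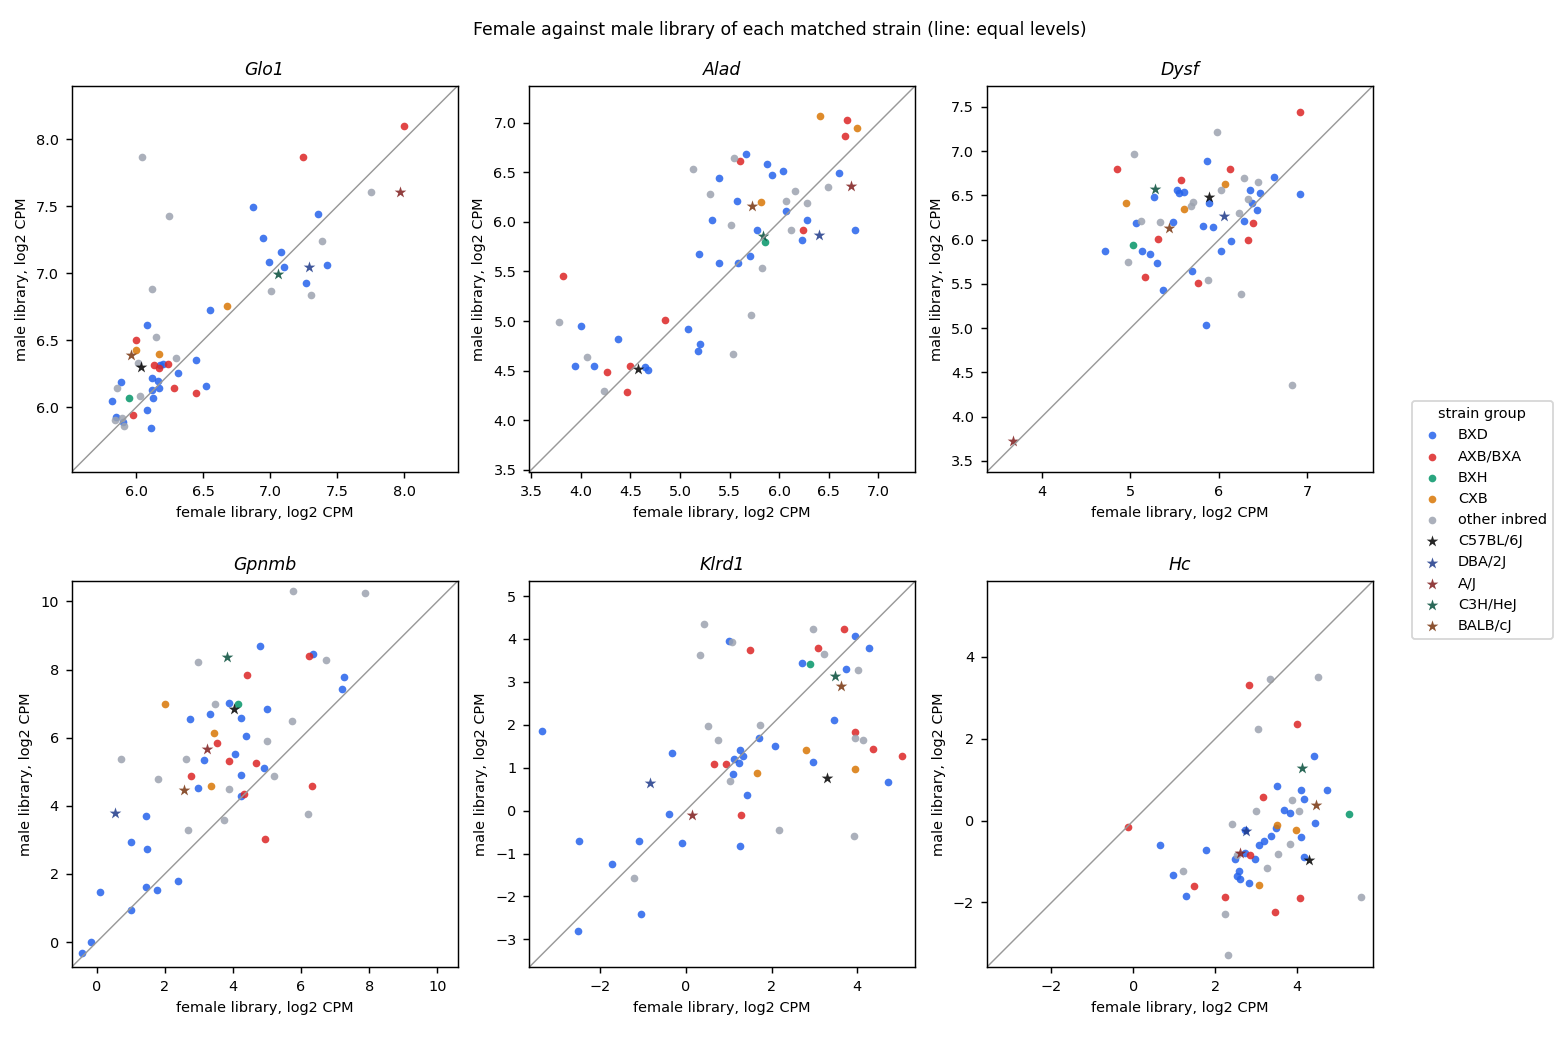
Female against male library of each of the 59 matched strains for each gene as log2 CPM, with parental strains as stars and the line marking equal levels. *Glo1* and *Alad* follow the line apart from a few strains, *Gpnmb* lies above it in 51 of 59 strains and *Hc* below it in 57 of 59.

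The gene most like *Glo1* over all libraries was its neighbour *Btbd9* (Pearson r = 0.74 of log2 CPM), whose span ends 8.45 kb from that of *Glo1*. The next were *Gm13443* on chromosome 2 (r = 0.70) and *H2-Ea-ps* on chromosome 17, 3715 kb away (r = 0.54). *Btbd9* had 22.8 and 22.9 CPM in C57BL/6J and 26.8 and 24.3 CPM in BALB/cJ, against 34.2 and 37.3 in DBA/2J, 42.3 and 43.1 in A/J and 37.1 and 37.4 in C3H/HeJ. It was higher by a log2FC of 0.63 in DBA/2J (adjusted p = 0.0370), 0.89 in A/J (adjusted p = 0.000676) and 0.69 in C3H/HeJ (adjusted p = 0.0162). Of 15 BXD strains nearer DBA/2J in *Glo1*, 14 were nearer DBA/2J in *Btbd9* too, the exception being BXD34/TyJ, and all 24 nearer C57BL/6J in *Glo1* were nearer C57BL/6J in *Btbd9*. In AXB/BXA the strains were sorted alike for both genes, 2 near A/J and 9 near C57BL/6J. Of 7 protein-coding neighbours within 500 kb, 4 passed the filter, and no neighbour other than *Btbd9* was called in a parental contrast. *Dnah8*, an axonemal dynein gene on the opposite strand, overlaps the span of *Glo1*. It had 8.30 and 1.30 CPM in C57BL/6J and 3.18 and 29.2 CPM in DBA/2J (adjusted p = 0.972), so the groups overlapped. In C3H/HeJ (64.9 and 37.4 CPM) and BALB/cJ (63.8 and 40.1 CPM) it did not overlap with C57BL/6J, with adjusted p = 0.384 and 0.293.

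The other genes of methylglyoxal handling were not called between the parents. Of 6 genes tested (*Hagh*, *Glod4*, *Ldhd*, *Park7*, *Akr1b3* and *Aldh2*), 0 passed in any of the 4 parental contrasts with edgeR, 0 at an unadjusted p under 0.05 and 0 with DESeq2. Their median log2FC was 0.19 in A/J, -0.26 in DBA/2J, -0.22 in C3H/HeJ and -0.09 in BALB/cJ, against medians over all genes of -0.013 (BALB/cJ) to 0.011 (DBA/2J). In female vs. male, 4 of 6 were lower in females, where 58.1% of all genes passed and 29.8% were lower. *Aldh2*, a mitochondrial aldehyde dehydrogenase, fell by a log2FC of 0.38 (adjusted p = 3.76e-06) and *Hagh*, which acts after glyoxalase 1, fell by 0.24 (adjusted p = 0.00115). *Akr1b3*, an aldose reductase, fell by 0.17 and *Park7*, also called DJ-1, by 0.16. Marker sums differed by sex too. With NZW/LacJ, PL/J, BXD34/TyJ and BXD69/RwwJ left aside, adipocyte markers had a median sum of 17164 CPM in females and 24124 CPM in males, and T cell markers 62.7 and 14.96 CPM. Their part in the sex differences of these genes was not tested.

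*Alad* (chr4:62509169-62519918, minus strand) was low in C57BL/6J and high in the other parents. C57BL/6J had 23.9 CPM in the female and 22.8 CPM in the male. DBA/2J had 84.3 and 58.5 CPM, A/J 105.8 and 82.2 CPM, C3H/HeJ 57.02 and 57.8 CPM and BALB/cJ 52.9 and 71.7 CPM. No library of the other parents overlapped with C57BL/6J. *Alad* was higher by a log2FC of 1.61 in DBA/2J (SE 0.39, adjusted p = 0.00674), 2.00 in A/J (SE 0.39, adjusted p = 0.000380) and 1.38 in BALB/cJ (SE 0.38, adjusted p = 0.0314). In C3H/HeJ the log2FC was 1.27 (SE 0.38, adjusted p = 0.0593). The A/J call held without any 1 parental library (adjusted p up to 0.0410). The DBA/2J call was lost without the C57BL/6J female (adjusted p = 0.0562), the C57BL/6J male (0.209) or the DBA/2J female (0.319). The BALB/cJ call was lost without any 1 of its 4 libraries, with adjusted p = 0.101 without the C57BL/6J female, 0.468 without the C57BL/6J male, 0.0816 without the BALB/cJ female and 0.177 without the BALB/cJ male. In C3H/HeJ *Alad* passed with DESeq2 (adjusted p = 0.0227), library totals (0.000774) and without NZW/LacJ and PL/J (0.0456).

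In BXD, *Alad* ranged from 10.4 CPM, in the library labelled BXD34/TyJ female, to 108.3 CPM, with a median of 47.8 CPM. Both libraries were nearer the same parent in 24 of 26 matched strains. BXD12/TyJ and BXD62/RwwJ were split. Over all BXD strains, 21 were nearer DBA/2J and 17 nearer C57BL/6J. Without BXD34/TyJ and BXD69/RwwJ the counts were 20 and 16. Levels near both parents and between them occurred, with BXD48/RwwJ at 15.3 and 23.4 CPM, BXD64/RwwJ at 25.1 and 23.2 CPM, BXD74/RwwJ at 47.9 and 48.05 CPM and BXD24/TyJ-Cep290<rd16>/J at 97.4 and 90.1 CPM. In AXB/BXA, 4 strains were nearer A/J and 7 nearer C57BL/6J, and 9 of 9 matched strains agreed. AXB5/PgnJ reached 102.3 and 130.6 CPM and AXB13/PgnJ 101.2 and 116.9 CPM, whereas AXB19a/PgnJ had 19.2 and 22.3 CPM and BXA8/PgnJ 22.1 and 19.4 CPM. The AXB12/PgnJ libraries differed most, at 14.1 CPM in the female and 43.7 CPM in the male, a difference of 1.63 on the log2 scale. The AXB12/PgnJ female library also had the lowest adipocyte marker sum of all libraries, 3340 CPM, and a B cell and lymph node marker sum of 992 CPM. All 5 BXH and all 6 CXB libraries were nearer the parent other than C57BL/6J, the CXB libraries at 56.2 to 134.3 CPM.

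Among the other inbred strains *Alad* lay between 13.7 and 99.7 CPM. KK/HlJ (18.7 and 19.5 CPM), BTBR T<+> tf/J (16.7 and 24.8 CPM) and SM/J (13.7 and 31.7 CPM) were at the low end. CBA/J (89.8 and 81.6 CPM), 129X1/SvJ (77.5 and 72.9 CPM) and MA/MyJ (71.5 and 79.6 CPM) were high in both libraries. Over 59 strains the median absolute difference between the sexes was 0.38 on the log2 scale, and 52 strains differed by less than 1. The strain term had F = 7.67 (adjusted p = 6.43e-12, rank 397 of 16765). Within families it had F = 8.40 in BXD (adjusted p = 7.61e-06), 14.8 in AXB/BXA (adjusted p = 0.0167) and 4.54 in the other inbred strains (adjusted p = 0.0435). In female vs. male, *Alad* fell by a log2FC of 0.20 (SE 0.07, adjusted p = 0.0137). The adjusted p was 0.144 when scaled by library totals and 0.279 without the strain term. Over all libraries *Alad* had r = 0.31 with the adipocyte sum and -0.24 with the T cell sum. Both sums differed by sex as given for the methylglyoxal genes, and their part in this difference was not tested.

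*Hdhd3*, a haloacid dehalogenase-like hydrolase gene 5.70 kb from *Alad*, had the pattern most like it (r = 0.88 over all libraries). The next gene was *Mup9*, a major urinary protein gene 2087 kb away (r = 0.53), and an identifier without a symbol carried the same values as *Mup9*. *Hdhd3* had 2.10 and 3.63 CPM in C57BL/6J, 14.99 and 13.997 CPM in DBA/2J, 12.9 and 7.73 CPM in A/J, 8.89 and 9.03 CPM in C3H/HeJ and 5.86 and 12.3 CPM in BALB/cJ. It was higher than in C57BL/6J in all 4 contrasts, with log2FC of 2.36 in DBA/2J (adjusted p = 0.000563), 1.89 in A/J (adjusted p = 0.00899), 1.66 in C3H/HeJ (adjusted p = 0.0320) and 1.64 in BALB/cJ (adjusted p = 0.0355). All 17 BXD strains nearer C57BL/6J in *Alad* were nearer C57BL/6J in *Hdhd3*, and 15 of the 21 nearer DBA/2J in *Alad* were nearer DBA/2J in *Hdhd3*. BXD66/RwwJ, BXD73/RwwJ and BXD74/RwwJ were nearer DBA/2J in *Alad* and nearer C57BL/6J in *Hdhd3*, and 3 further strains were split in *Hdhd3*. In AXB/BXA, 4 of 4 strains near A/J and 6 of 7 near C57BL/6J in *Alad* were sorted alike in *Hdhd3*. Of 17 protein-coding neighbours within 500 kb of *Alad*, 14 were tested. With edgeR the only neighbour called apart from *Hdhd3* was *Cdc26* in C3H/HeJ, 100.5 kb away and lower by 0.38 (adjusted p = 0.0397). DESeq2 called *Cdc26* in C3H/HeJ and also in BALB/cJ (adjusted p = 0.0479, against 0.0912 with edgeR).

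**Figure D4:**
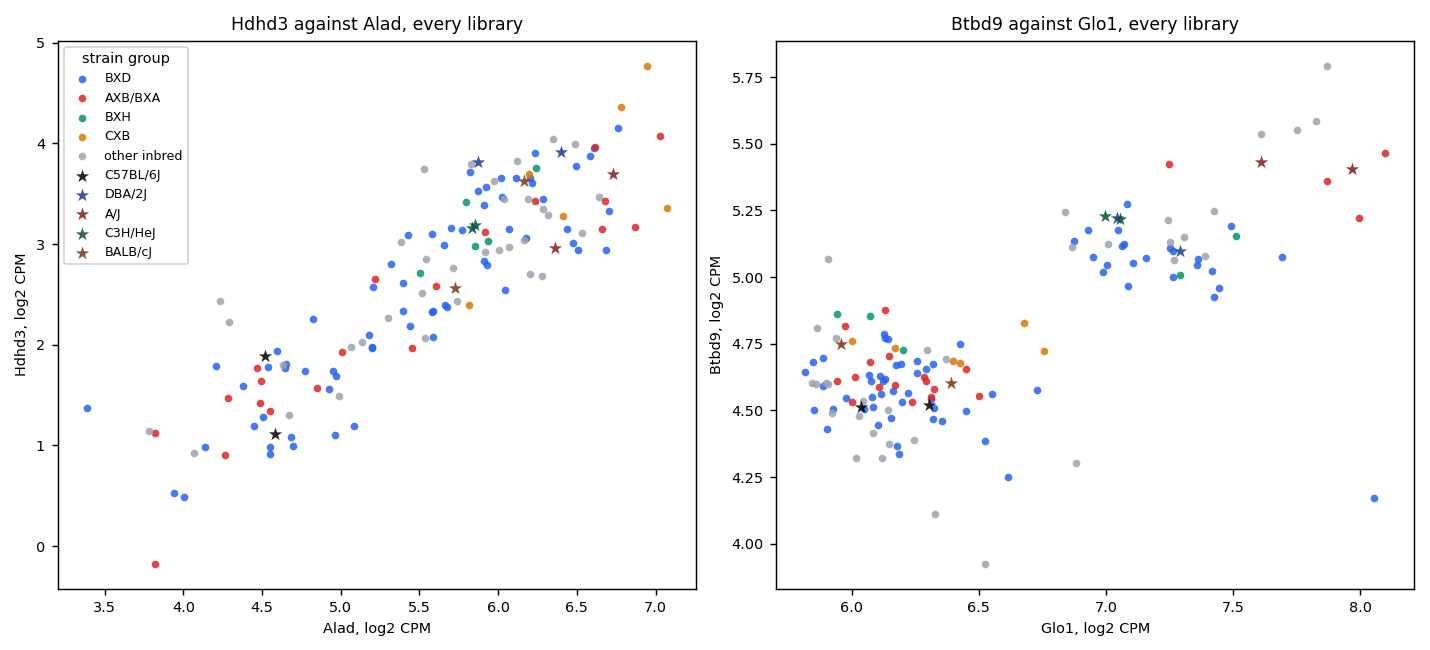
*Hdhd3* against *Alad* and *Btbd9* against *Glo1* in every library as log2 CPM, coloured by family, with parental libraries as stars. *Hdhd3* is higher where *Alad* is higher, with the C57BL/6J stars at the low end. *Btbd9* is higher where *Glo1* is higher, apart from the library labelled BXD34/TyJ female, which is the highest BXD library in *Glo1*.

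The other enzymes of heme synthesis were not called between the parents. Of 8 genes tested, 0 passed in any of the 4 parental contrasts with edgeR. Before adjustment, with p under 0.05, 2 passed in DBA/2J, 1 in BALB/cJ and 0 in the others, and DESeq2 called 0. Their median log2FC was 0.04 in DBA/2J, 0.11 in A/J, -0.22 in C3H/HeJ and -0.11 in BALB/cJ, beside the same medians over all genes. Of these, 4 passed the strain term against 71.2% of all genes. In female vs. male, 3 were lower and 1 higher, against 58.1% of all genes passing. *Alas1*, the rate-limiting enzyme outside red cells, fell by 0.75 (SE 0.09, adjusted p = 6.51e-11) and *Fech*, which inserts the iron, fell by 0.24 (adjusted p = 2.52e-05). *Ppox* was higher by 0.10 (adjusted p = 0.00218). The part of the adipocyte and T cell sums, which differed by sex as given for the methylglyoxal genes, was not tested here either.

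*Dysf* (chr6:84008590-84211060, plus strand) was low in A/J. The A/J libraries had 12.7 CPM (female) and 13.2 CPM (male), the lowest of all libraries. C57BL/6J had 59.2 and 89.4 CPM, DBA/2J 66.4 and 77.2 CPM, C3H/HeJ 38.8 and 94.8 CPM and BALB/cJ 43.3 and 70.1 CPM. *Dysf* was lower in A/J by a log2FC of -2.49 (SE 0.50, adjusted p = 0.000684). The adjusted p was 0.0537 without the A/J male and stayed below 0.05 without any other 1 parental library. In the other contrasts the log2FC lay between -0.42 and -0.03 with adjusted p from 0.661 to 1.

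The A/J level did not recur in the lines derived from A/J. The 20 AXB/BXA libraries lay between 28.7 and 173 CPM, and 19 of them were nearer C57BL/6J. The exception was the AXB12/PgnJ female at 28.7 CPM, whose male library had 111.01 CPM. AXB5/PgnJ was highest at 121 and 173 CPM. The strain term within AXB/BXA did not pass (F = 2.98, adjusted p = 0.492). Outside A/J, the lowest libraries were those labelled PL/J male at 20.5 CPM and BXD34/TyJ female at 23.04 CPM, both noted above. The library labelled PL/J male was more like the A/J female than the PL/J female in the genes that differed most between strains. SJL/J, which is known to carry a splicing allele of *Dysf*, had 34.7 and 74.2 CPM, within the range of the other inbred strains. The strain term over all strains was modest (F = 1.90, adjusted p = 0.0139, rank 8552 of 16765). In female vs. male, *Dysf* fell by a log2FC of 0.43 (SE 0.09, adjusted p = 4.54e-05) and was lower in the female library of 46 of 59 strains. Over all libraries *Dysf* had r = 0.55 with the adipocyte sum, -0.59 with the T cell sum, -0.53 with the B cell and lymph node sum and -0.42 with the mammary epithelium sum. The adipocyte and T cell sums differed by sex as given above, and the B cell and lymph node sum had medians of 176 CPM in females and 8.86 CPM in males, the same 4 strains left aside. The mammary epithelium sum had medians of 382 CPM in these females and 1.64 CPM in these males. Their part in the sex differences of *Dysf* and of the membrane repair genes was not tested.

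*Dysf* was most like *Nrp1*, a receptor of endothelial cells (r = 0.71), *Arap3* (r = 0.69) and *Ypel2* (r = 0.69), none of which lies on chromosome 6. Of 11 neighbours tested within 500 kb, 0 were called in A/J by edgeR, 0 passed at an unadjusted p under 0.05 and DESeq2 called 0. In BALB/cJ 1 passed, *Tex261*, which was lower by 0.50 (adjusted p = 0.0479). Of 13 ferlin and membrane repair genes, 8 were tested, and 0 passed in any parental contrast with edgeR. At an unadjusted p under 0.05, 1 passed in BALB/cJ and 0 in the others, and DESeq2 called 0. Between the sexes 5 were lower and 2 higher in females, against 29.8% and 28.4% of all genes. The annexins that bind damaged membrane were lower, *Anxa6* by 0.67 (adjusted p = 1.71e-11) and *Anxa2* by 0.85 (adjusted p = 5.28e-09), as was the scaffold *Ahnak*, which fell by 0.53 (adjusted p = 6.39e-07). *Anxa1* fell by 0.61 and *Anxa5* by 0.45. *Fer1l4*, annotated as a ferlin-like gene, was higher in females by 6.87 (SE 0.35, adjusted p = 1.54e-25), and the protease *Capn3* by 1.004.

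*Gpnmb* (chr6:49036546-49070929, plus strand) varied more than any other member and was higher in males. DBA/2J had the lowest values of the parents, 1.38 CPM in the female and 13.8 CPM in the male. C57BL/6J had 16.3 and 115 CPM, A/J 9.42 and 51.2 CPM, C3H/HeJ 14.1 and 327 CPM and BALB/cJ 5.80 and 22.2 CPM. In every parent the male library was above the female library. The log2FC was -3.15 in DBA/2J (SE 1.19, unadjusted p = 0.0104, adjusted p = 0.248 with edgeR), -2.05 in BALB/cJ (adjusted p = 0.377), -1.04 in A/J (adjusted p = 0.789) and 1.15 in C3H/HeJ (adjusted p = 0.689). None of the 4 passed the threshold, and the SE of 1.10 to 1.19 leaves wide intervals. Without 1 parental library it ran from -4.28 to -2.48 in DBA/2J, -2.50 to -1.39 in BALB/cJ, -1.50 to -0.38 in A/J and -0.94 to 1.98 in C3H/HeJ, where it was below 0 without the C3H/HeJ male. In female vs. male, *Gpnmb* fell by a log2FC of 1.67 (SE 0.23, adjusted p = 1.08e-08) and was lower in the female in 51 of 59 strains. Over all members, 4 of 6 passed the test of sex (3 lower and 1 higher in females) against 58.1% of all genes (29.8% lower and 28.4% higher).

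The strain term of *Gpnmb* had F = 5.81 (adjusted p = 2e-09, rank 644 of 16765), and within BXD it had F = 12.8 (adjusted p = 1.26e-07, rank 222 of 16539). BXD50/RwwJ (0.673 and 0.738 CPM) and BXD40/TyJ (0.822 and 0.932 CPM) were low in both sexes, as were BXD66/RwwJ (1.94 and 1.85 CPM), BXD74/RwwJ (3.33 and 2.82 CPM) and BXD51/RwwJ (2.64 and 2.99 CPM). At the other end, BXD86/RwwJ had 153 and 218 CPM, BXD60/RwwJ 146 and 172 CPM and the single BXD73/RwwJ male 724 CPM. In 22 of 26 matched BXD strains both libraries were nearer the same parent, and over all BXD strains 12 were nearer DBA/2J and 24 nearer C57BL/6J. Without BXD34/TyJ and BXD69/RwwJ the counts were 12 and 22. These counts used parental means over both sexes, although males were higher in both parents. Against the parental library of the same sex, 21 of 26 matched strains agreed. Over all BXD strains, 11 were then nearer DBA/2J, 24 nearer C57BL/6J and 5 split. Among the other inbred strains KK/HlJ (54.1 and 1255 CPM) and CE/J (236 and 1206 CPM) had the highest male libraries. The strain term did not pass within AXB/BXA (adjusted p = 0.564) or the other inbred strains (adjusted p = 0.0512).

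Levels of *Gpnmb* moved with the markers of lipid-associated macrophages. Over libraries of each sex, the summed CPM of 8 markers (*Trem2*, *Cd9*, *Cd68*, *Lgals3*, *Itgax*, *Mmp12*, *Atp6v0d2* and *Spp1*) correlated with *Gpnmb* in 74 males (r = 0.69, rho = 0.69, adjusted permutation p = 1.6e-05 and 2.67e-05) and in 67 females (r = 0.52, rho = 0.48, adjusted permutation p = 2.67e-05 and 6.4e-05). These were 2 of 8 such relations computed, and r was 0.64 in males and 0.50 in females without the 2 libraries farthest from the median marker sum. In bulk tissue, fewer cells of a type and less RNA per cell cannot be told apart. The gene most like *Gpnmb* was *Trem2*, a lipid receptor of these macrophages (r = 0.73), followed by *Cln8* (r = 0.72), and an identifier without a symbol carried the values of *Trem2*. DBA/2J stood low against this sum. The sum was 399 CPM in its female and 866 CPM in its male, higher than in C57BL/6J (255 and 628 CPM), while the ratio of *Gpnmb* to it, in percent, was 0.346% and 1.59% in DBA/2J and 6.41% and 18.4% in C57BL/6J. *Gpnmb* is not among the 8 markers, so this is no share of the sum, and the ratio reached 90.4% in the BXD73/RwwJ male. *Trem2* itself was at 1.38 and 16.3 CPM in DBA/2J and 0.711 and 8.75 CPM in C57BL/6J. In 8 BXD strains every library was at or below the highest DBA/2J ratio of 1.59%, in 29 every library was above it, and 23 of 26 matched strains had both libraries on 1 side. These 8 strains were BXD40/TyJ, BXD44/RwwJ, BXD50/RwwJ, BXD51/RwwJ, BXD55/RwwJ, BXD62/RwwJ, BXD66/RwwJ and BXD74/RwwJ. Of them only BXD40/TyJ is labelled TyJ, and the others are labelled RwwJ. Strains of both labels were above 1.59%, and the labels were not compared by a test. The highest DBA/2J ratio is that of its male, and it was applied to both sexes. The females of FVB/NJ (0.931%), SJL/J (0.703%), SWR/J (1.13%) and SM/J (1.37%) were also below 1.59%, with their males at 8.57% to 16.1%. The 3 BXD strains with a library on each side were, in female and male, BXD43/RwwJ at 2.16% and 1.46%, BXD45/RwwJ at 0.694% and 1.69% and BXD56/RwwJ at 1.56% and 2.57%, so the count of low strains depends on where that limit is set. The next higher BXD library was at 3.24%. In the 8 BXD strains the male libraries too were low, at 0.361% to 1.09%.

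Among the relatives and lysosomal genes listed with *Gpnmb*, 10 were tested and 9 were lower in females, against 29.8% of all genes. The macrophage marker sum had a median of 267 CPM (range 152 to 1214 CPM) in 63 female libraries and 331 CPM (96.8 to 2485 CPM) in 72 male libraries, the same 4 strains left aside as for the other marker sums. Its part in these differences was not tested. *Atp6v0d2* and *Lgals3* are also macrophage markers in the sum above. *Atp6v0d2*, a subunit of the lysosomal proton pump, fell by 1.95 (SE 0.24, adjusted p = 4.5e-10), the galectin *Lgals3* by 0.87 (adjusted p = 7.09e-07), the protease *Ctsb* by 0.44 (adjusted p = 1.09e-06) and the membrane protein *Lamp1* by 0.30 (adjusted p = 4.71e-07). The others lower in females were *Mitf*, *Tfeb*, *Tfe3*, *Ctsk* and *Ctsd*. In the parental contrasts 1 of 10 passed with edgeR, *Tfe3*, a lysosomal transcription factor of the MITF family, which was higher in BALB/cJ by 0.65 (adjusted p = 0.000792). Before adjustment, with p under 0.05, 4 passed in BALB/cJ, 1 in A/J and 0 in the others, and DESeq2 called *Tfe3* and *Lgals3* in BALB/cJ. Of 24 neighbours of *Gpnmb* tested within 500 kb, 0 were called by edgeR in any of the 4 contrasts. At an unadjusted p under 0.05, 2 passed in A/J and 1 in each of the other contrasts, and DESeq2 called 0.

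*Klrd1* (chr6:129591782-129598775, plus strand) was low in both libraries of DBA/2J and A/J and in the C57BL/6J male. DBA/2J had 0.498 CPM (female) and 1.49 CPM (male), from 13 and 54 counts, and A/J 1.04 and 0.866 CPM. C57BL/6J had 9.72 and 1.63 CPM, C3H/HeJ 11.1 and 8.78 CPM and BALB/cJ 12.3 and 7.44 CPM. The log2FC was -2.36 in DBA/2J (SE 1.29, adjusted p = 0.728) and -2.51 in A/J (SE 1.30, adjusted p = 0.456), and 0.85 and 0.82 in C3H/HeJ and BALB/cJ (adjusted p = 0.782 and 0.736). None passed. Without 1 parental library the log2FC ran from -3.59 to -0.74 in DBA/2J, -3.27 to -0.88 in A/J, 0.093 to 2.48 in C3H/HeJ and 0.063 to 2.45 in BALB/cJ. The strain term passed over all strains (F = 2.96, adjusted p = 0.000135) and within BXD (F = 5.47, adjusted p = 0.000302), and the sexes did not differ past the threshold (log2FC 0.27, SE 0.26, adjusted p = 0.368). BXD libraries lay between 0 and 26.3 CPM. The library at 0 was BXD34/TyJ, labelled female, in which 3 counts correspond to 0.843 CPM.

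*Klrd1* moved with lymphoid markers of several kinds. Over all libraries r was 0.71 with the NK sum, 0.72 with the T cell sum and 0.70 with the B cell and lymph node sum. With the sum of 7 NK markers (*Ncr1*, *Klrb1c*, *Nkg7*, *Gzma*, *Prf1*, *Eomes* and *Klre1*, of which *Klre1* lies 5.96 kb from *Klrd1*) it correlated in 67 females (r = 0.69, rho = 0.78, adjusted permutation p = 1.6e-05 and 2.67e-05) and in 74 males (r = 0.73, rho = 0.76, adjusted permutation p = 1.6e-05 and 2.67e-05). Without the 2 libraries farthest from the median, r was 0.67 and 0.72. The genes most like *Klrd1* were *Gramd1a* (r = 0.79), *Ctsw*, a cathepsin of cytotoxic lymphocytes (r = 0.78), and *Clec2i*, a lectin gene 694 kb away in the NK complex (r = 0.78). The C57BL/6J libraries differed in their lymphoid content. B cell and lymph node markers summed to 399 CPM in the female and 5.19 CPM in the male, and in DBA/2J to 3.22 and 302 CPM. Against the NK sum, *Klrd1* amounted to 3.21% and 6.51% in DBA/2J, 39.1% and 13.1% in C57BL/6J, 15.8% and 14.6% in A/J, 23.02% and 20.7% in C3H/HeJ and 21.9% and 26.6% in BALB/cJ. The DBA/2J libraries were below all other parental libraries on this measure. This is a description of single libraries, with no test.

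*Klrd1* is not among the 7 markers, so this percentage is a ratio to their sum and not a share of it. In BXD, strains lay on both sides of the DBA/2J ratio. In 14 of 40 strains every library was at or below the highest DBA/2J ratio of 6.51%, and in 25 every library was above it. Of the 14, only BXD34/TyJ and BXD36/TyJ are labelled TyJ, and the others are labelled RwwJ. Strains of both labels were above that ratio, and the labels were not compared by a test. Of 26 matched strains, 25 had both libraries on 1 side, 10 of them at or below. BXD40/TyJ had 1 library on each side, with 1 count of *Klrd1* in the female and 10.6% in the male. Low strains included BXD64/RwwJ, with 3 and 2 counts, BXD60/RwwJ (1.41% and 2.08%, from 7 and 11 counts) and BXD44/RwwJ (3.63% and 4.20%, from 13 and 20 counts). No percentage is given for libraries at or under the floor of 3 counts. High strains included BXD66/RwwJ (44.5% and 36.2%), BXD48/RwwJ (40.3% and 31.5%) and BXD55/RwwJ (33.3% and 32.9%). The named low and high strains also differed in lymphoid content. Their B cell and lymph node sums were 4.02 to 9.61 CPM in the low and 413 to 864 CPM in the high strains. Of the 2 C57BL/6J libraries, the one with the higher sum also had the higher ratio. Other strains did not follow this order. BXD12/TyJ, at sums of 5.89 and 5.48 CPM, had ratios of 16.8% and 12.99%. BXD87/RwwJ, at 477 and 766 CPM, had 4.38% and 3.57%, and BXD74/RwwJ, at 518 and 710 CPM, had 5.81% and 6.45%. The part of lymphoid content in the ratio was not tested. The libraries labelled BXD34/TyJ female and BXD69/RwwJ female, which go against their sex labels, were among the low ones. Without them 12 of 38 strains were at or below that ratio and 25 above it. The values next to that ratio were 6.45% in BXD74/RwwJ and 6.53% in BXD73/RwwJ. On the CPM scale itself, 20 of 26 matched BXD strains had both libraries nearer the same parent.

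**Figure D5:**
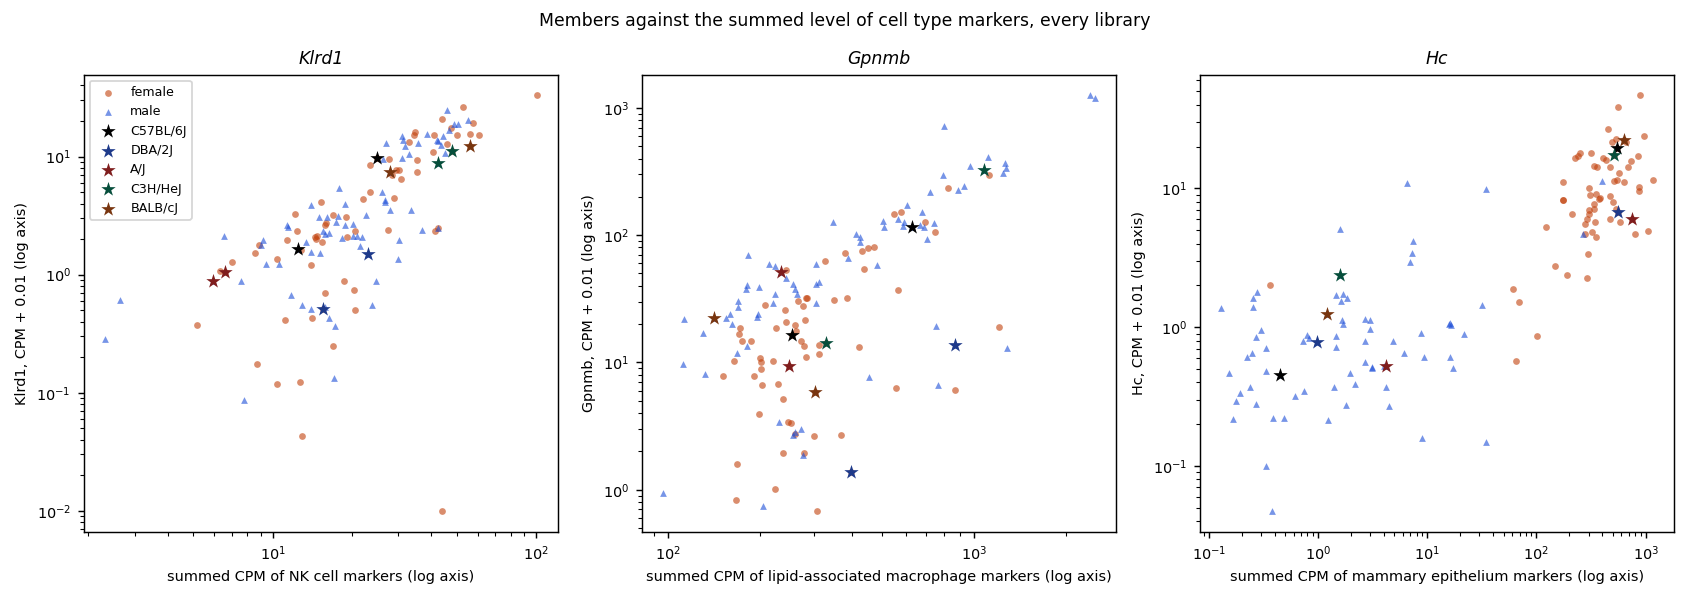
*Klrd1*, *Gpnmb* and *Hc* in CPM against the summed CPM of NK cell, lipid-associated macrophage and mammary epithelium markers in every library, on log axes with 0.01 added to the gene's level, with parental libraries as stars. *Klrd1* and *Gpnmb* are higher where their marker sums are higher, with the DBA/2J stars at the lower edge, and *Hc* is high where mammary markers are high, which is in female libraries.

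Among the partners of *Klrd1* and the other lectins of the NK complex, 11 of 12 were tested. In A/J 2 were lower, and in the other parental contrasts 0 passed with edgeR. Lymphoid markers were lower in A/J too. The NK sum was 6.61 and 5.93 CPM in A/J against 24.9 and 12.5 CPM in C57BL/6J, and the T cell sum was 13.7 and 10.6 CPM against 156 and 12.2 CPM. Their part in these calls was not tested. *Klrb1c* and *Klre1* of this list are also among the 7 markers of the NK sum, so that sum is not separate from them. At an unadjusted p under 0.05, 7 passed in A/J, 1 in C3H/HeJ and 0 in DBA/2J and BALB/cJ. DESeq2 called *Klri2*, *Klrb1c* and *H2-T23* in A/J and 0 in the other contrasts. *H2-T23*, the class I ligand Qa-1 that CD94 receptors bind, was lower in A/J by 2.66 (SE 0.49, adjusted p = 0.000147), at 18.3 and 12.9 CPM against 131.4 and 67.3 CPM in C57BL/6J. *Klrb1c*, the NK1.1 gene, was lower by 2.95 (SE 0.75, adjusted p = 0.0131), at 0.174 and 0.353 CPM against 2.10 and 1.93 CPM. Class I and lectin genes are polymorphic and have near-identical copies, so their levels from a C57BL/6J transcriptome are uncertain in other strains. All 11 passed the strain term, as did 71.2% of all genes. Of 18 neighbours tested within 500 kb of *Klrd1*, edgeR called 1 in A/J, the lectin gene *Klra4*, lower with adjusted p = 0.0135. Before adjustment, with p under 0.05, 5 passed in A/J, and DESeq2 called *Klra4* and *Klri2*. The A/J libraries of *Klra4* were under the floor of 3 counts, so no fold is given. In the other parental contrasts edgeR called 0, 1 passed in each before adjustment with p under 0.05, and DESeq2 called *Klra4* in DBA/2J and BALB/cJ. Between the sexes, *Tyrobp*, a signal adaptor shared with macrophages, fell in females by 0.42 (adjusted p = 0.000288), and *H2-T23* was higher by 0.34 (adjusted p = 0.000750), in libraries whose T cell and B cell sums also differed by sex, with a part that was not tested.

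*Hc* (chr2:34983331-35061438, minus strand) was higher in females. Females had a mean of 11.6 ± 8.50 CPM (SD, n = 59 strains) and males 1.40 ± 2.36 CPM. The log2FC was 3.60 (SE 0.21, adjusted p = 4.33e-23 by edgeR, rank 211 of 16765 by size), and the female library was higher in 57 of 59 strains. In the parents, C57BL/6J had 19.4 CPM in the female and 0.445 CPM in the male, DBA/2J 6.71 and 0.775 CPM, A/J 6.03 and 0.513 CPM, C3H/HeJ 17.3 and 2.37 CPM and BALB/cJ 22.1 and 1.24 CPM. The ranges of all parents overlapped, so no nearer parent was assigned. The parental log2FC lay between -1.11 (A/J, SE 0.99) and 0.78 (C3H/HeJ, SE 0.95) with adjusted p from 0.739 to 1. Without 1 parental library it ran from -1.34 to 0.57 in DBA/2J, -1.71 to 0.20 in A/J, -0.11 to 1.80 in BALB/cJ and 0.17 to 2.08 in C3H/HeJ, so in the first 3 of these 1 library turned the direction. The female libraries of DBA/2J and A/J were the lower ones of the 5 parents. The strain term passed over all strains (F = 2.98, adjusted p = 0.000129) and within BXD (F = 5.70, adjusted p = 0.000221), but not within AXB/BXA (adjusted p = 0.627) or the other inbred strains (adjusted p = 0.181). On log2(TPM + 1), with limma, the strain term over all strains did not pass (adjusted p = 0.0609).

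In BXD, *Hc* was higher in the female in 26 of 26 matched strains. Female BXD libraries ranged from 1.499 to 26.6 CPM with a median of 8.525 CPM, leaving out the libraries labelled BXD34/TyJ female, with 2 counts, and BXD69/RwwJ female, at 1.998 CPM, which go against their sex labels. With them the median was 8.02 CPM. Male BXD libraries ranged from 0.0903 CPM, which is 3 counts, to 4.16 CPM with a median of 0.702 CPM. BXD85/RwwJ (26.6 CPM), BXD51/RwwJ (21.6 CPM) and BXD45/RwwJ (21.4 CPM) had the highest female BXD libraries. SM/J had the highest female library of all, 46.8 CPM, with 0.211 CPM in its male, and BXH8/TyJ had 38.4 and 1.05 CPM. The exceptions to the female excess were AXB5/PgnJ (6.995 CPM in the female, 9.85 CPM in the male) and MA/MyJ (10.1 and 10.9 CPM).

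Markers of other cell types moved with *Hc*. Mammary epithelium markers summed to a median of 382 CPM in 63 female libraries and 1.64 CPM in 72 male libraries, the libraries of NZW/LacJ, PL/J, BXD34/TyJ and BXD69/RwwJ left aside. Within 67 females the sum correlated with *Hc* (r = 0.55, rho = 0.51, adjusted permutation p = 1.6e-05 and 6.4e-05), and within 74 males less tightly (r = 0.43, rho = 0.30, adjusted permutation p = 0.000171 and 0.0115). These libraries were grouped by label, with the 4 strains left aside for the medians kept in. Without the 2 libraries farthest from the median, r was 0.61 in females and 0.29 in males. Among the genes most like *Hc* were *Urah* (r = 0.88) and *Esrp2*, an epithelial splicing regulator (r = 0.87). Hepatocyte markers (*Alb*, *Apoa1* and *Ttr*) correlated with *Hc* in males (r = 0.56, rho = 0.30, adjusted permutation p = 1.6e-05 and 0.0115) and not past the threshold in females (r = 0.09, adjusted permutation p = 0.467). In males r was 0.41 without the 2 libraries farthest from the median. The male libraries of MA/MyJ and AXB5/PgnJ had the highest hepatocyte sums among males, 2569 and 2156 CPM, against a male median of 25.6 CPM. The libraries labelled NZW/LacJ male and PL/J male, at 11.3 and 4.64 CPM of *Hc*, had mammary marker sums of 396 and 265 CPM. The part of these markers in the sex difference was not tested. Of 16 neighbours of *Hc* tested within 500 kb, 0 were called by edgeR in any of the 4 parental contrasts, 0 passed at an unadjusted p under 0.05 and DESeq2 called 0.

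Of the 11 genes of complement activation and the C5 receptors, 9 were tested. *C5ar2*, the second receptor of C5a, was lower than in C57BL/6J in all 4 contrasts, which share the C57BL/6J libraries. It had 3.86 and 4.82 CPM in C57BL/6J, against 1.38 and 1.33 in DBA/2J, 0.753 and 1.22 in A/J, 1.56 and 1.45 in C3H/HeJ and 1.82 and 1.12 in BALB/cJ, with no overlap. The log2FC was -1.68 (adjusted p = 0.00381), -2.15 (adjusted p = 0.000121), -1.54 (adjusted p = 0.0101) and -1.57 (adjusted p = 0.00778). No other gene of the list passed in a parental contrast. By sex 3 were lower and 1 higher in females, against 29.8% and 28.4% of all genes. *C7*, which joins C5b in the membrane attack complex, fell by 4.07 (SE 0.20, adjusted p = 1.03e-25), opposite in direction to *Hc*, factor B (*Cfb*) fell by 0.85 (adjusted p = 8.1e-12) and the receptor *C5ar1* fell by 0.66 (adjusted p = 7.69e-06). *C3* was higher by 0.25 (adjusted p = 0.0285). The part of the marker sums that differ by sex was not tested for these genes.

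Set side by side, the members differed in how well the 2 libraries of a strain went together. The median absolute difference on the log2 scale over 59 strains was 0.14 for *Glo1*, 0.38 for *Alad*, 0.59 for *Dysf*, 0.77 for *Klrd1*, 1.92 for *Gpnmb* and 3.65 for *Hc*. The range of strain means on the same scale was 2.17, 2.62, 3.48, 6.70, 9.43 and 4.49 for the same genes. The difference between the libraries of a strain was smallest against that range for *Glo1* and largest for *Hc*. It includes the mean sex difference, which for *Hc* was a log2FC of 3.60. The SD of the difference over strains leaves that mean out. It was 0.37 for *Glo1*, 0.55 for *Alad*, 0.71 for *Dysf*, 1.88 for *Klrd1*, 1.70 for *Gpnmb* and 1.44 for *Hc*. By this SD, *Klrd1* and *Gpnmb* varied more within strains than *Hc*. Strains that differed most were NZW/LacJ for *Glo1* (1.82), AXB12/PgnJ for *Alad* (1.63), PL/J for *Dysf* (2.47), BXD40/TyJ for *Klrd1* (5.20), MA/MyJ for *Gpnmb* (5.23) and SM/J for *Hc* (7.41). In NZW/LacJ and PL/J the male library was more like the female of another strain, as given above. Whether their differences lie within 1 strain was not tested.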

How the data were processed

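RNA-seq of iWAT was analysed in 141 libraries of 82 strains. The authors ran kallisto 0.46.1 on Ensembl transcripts (GRCm38) and added them up per gene in tximport. These deposited estimated counts hold no scaling for depth. Reads are shared out by probability, so 30.3% of the values are not whole. The deposited TPM values correct for length and carry no depth. Symbols and spans were taken from GENCODE M21 and paired 35856 of 36558 identifiers. Reads of other strains were matched to a C57BL/6J reference, which can lower the values of diverged genes, and near-identical copies can share reads.

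Groups follow the strain and sex labels. The labels give each library a number but do not say whether it was made from 1 mouse, so p-values measure the spread between these libraries. The 6 members and the lists of related genes and markers were chosen with earlier results of these data known.

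Estimated counts were rounded to whole numbers, filtered with filterByExpr by sex (16765 genes), scaled by TMM and tested with edgeR 4.0.16 (R 4.3.3) in the quasi-likelihood model ~ Strain + Sex over the 59 strains with both sexes. Benjamini-Hochberg adjustment covered all genes tested, with a threshold of 0.05. The SE is the log2FC divided by the root of its F statistic. The pair of a strain is the replicate block. It comes from the strain label, and deviations of the 2 libraries of a strain had a mean r of 0.407, against -0.00714 for libraries of other strains, with r over 0.1 in 45 of 59 pairs. A library was put nearer to the parental mean on the log2 CPM scale (prior count 2). Relations with marker sums were tested with two-sided permutation tests with 100000 resamples on log2 values, 0.1 CPM being added to the sum, and 1.6e-05 and 2.67e-05 are the smallest adjusted p they gave. Libraries were grouped by sex label for these tests, the 3 libraries against their labels included. Neighbours are protein-coding genes within 500 kb, and the 3 genes most like a member by Pearson r were named. Results of 2 genes of these lists are not reported here.

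The steps were tested on simulated data with 16730 genes. In DBA/2J vs. C57BL/6J, 6% of 100 genes changed by a log2FC of 1 and 66% of 100 changed by 2 were recovered, with 3 unchanged genes called. For sex, 99% were recovered at 0.5 and 100% at 1, with 7 unchanged genes called. Results were recomputed with DESeq2 1.42.0, RLE size factors, library totals, no filter, at least 10 counts in every library, all libraries, limma-voom (limma 3.58.1), limma on log2(TPM + 1) and log2(TPM + 0.1), without the block, without NZW/LacJ, and without each parental library. Alternatives chosen after seeing the data leave out NZW/LacJ and PL/J, take the parental library of the same sex as reference, or leave out BXD34/TyJ and BXD69/RwwJ. Python 3.11.15, numpy 2.4.6, pandas 2.3.3 and matplotlib 3.10.9 were used for descriptions and plots.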

Additional observations from a re-analysis of the deposited data

How the results depend on the processing

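Genes called between parents fell from 386 to 183 (DBA/2J), 462 to 260 (A/J), 417 to 240 (C3H/HeJ) and 435 to 228 (BALB/cJ) with at least 10 counts in every library, a filter that leaves fewer genes and neither *Hc* nor *Klrd1*. A/J had 289 on log2(TPM + 1) and C3H/HeJ 267 on log2(TPM + 0.1). Leaving out 1 parental library gave 246 to 267, 250 to 338, 227 to 285 and 222 to 358. Of all recomputed counts, 85 lay within 1.5 times the reported one and 17 did not. Without the replicate block, 8190 genes were called between the sexes, and of the members only *Alad* changed its call. Of the recomputed member values, 434 kept direction and call, 17 lost and 13 gained the call and 16 changed direction. Those that changed direction follow. *Glo1* in BALB/cJ had a log2FC of 0.020 with all libraries, 0.0024 with RLE and with DESeq2, 0.19 with library totals, 0.044 with the stricter filter and -0.16 to 0.17 without 1 library, above 0 without the C57BL/6J male or the BALB/cJ female. *Dysf* in DBA/2J had 0.046 with library totals and -0.14 to 0.066 without 1 library, above 0 without the male of either strain, and in C3H/HeJ -0.72 to 0.16, above 0 without the C3H/HeJ female. *Glo1* had 0.012 between the sexes with library totals. Without 1 library, *Hc* had -1.34 to 0.57 in DBA/2J and -1.71 to 0.20 in A/J, above 0 without the C57BL/6J female, and -0.11 to 1.80 in BALB/cJ, below 0 without the C57BL/6J male. *Gpnmb* had -0.94 to 1.98 in C3H/HeJ, below 0 without the C3H/HeJ male. The causes were not tested. *Hc* lost the strain term on log2(TPM + 1) (adjusted p = 0.0609). Under library totals the median log2FC of all genes was 0.10 (DBA/2J), -0.16 (A/J), 0.19 (C3H/HeJ), 0.20 (BALB/cJ) and 0.12 (sex). Lower and higher genes were then 2774 and 7410 by sex (4988 and 4759 under TMM), 273 and 165 in A/J (216 and 246) and 164 and 260 in BALB/cJ (216 and 219), and 217 of 350 were higher in C3H/HeJ (206 of 417). On log2(TPM + 1), 13 BXD strains were nearer DBA/2J in *Glo1* and 26 nearer C57BL/6J, and 22 and 18 in *Alad*. With 2 libraries per parent, depth and number limit which changes can be called, and low levels of *Hc* and *Klrd1* rest on few counts.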
